A study of Mus musculus with 38 samples.

Results

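SATB1 binding sites of mouse brain and mouse skin, both mapped by urea ChIP-seq, were compared with each other. Peaks of the 4 SATB1 lists, 2 from brain and 2 from skin, were merged into 136925 regions wherever they shared at least 1 bp on chromosomes 1 to 19, X or Y of the mm9 genome. A region was called brain-only when both brain lists and neither skin list had a peak in it, which held for 81282 regions. It was called skin-only when both skin lists and neither brain list had one, which held for 1207 regions, and 7389 regions had a peak in all 4 lists. These classes together held 89878 regions. The remaining 47047 regions had another pattern, and 42952 of them had a peak in one brain list alone. Only the presence of a peak chose the regions, so base composition, genomic place, genes and the other factors' peaks played no part in the choice.

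The series has 38 samples, and peak lists of 11 of them were analysed. All 4 lists compared here came from wild-type C57BL/6 mice and from a home-made rabbit antibody to SATB1, 1583D. Brain replicates 1 and 2 carry an age of 5 and 6 weeks, while their protocol text names cortex at postnatal day 13. Skin replicates 1 and 2 are labelled postnatal day 13, while the protocol text names epidermal keratinocytes of day 5. The study's methods give yet other ages for both tissues. The labels add 10 and 12 cycles to the brain samples and 55 and 60 seconds to the skin samples without saying what they refer to. Both brain samples carry one experiment number and both skin samples another, so tissue and experiment cannot be told apart, and the study describes its replicates in general as coming from different animals while the labels do not say so for these pairs, so the spread between lists may be technical. The lists hold peaks and no expression or read counts, so the depth of each sample is unknown here, though the study describes total aligned reads as similar between cell types, and the labelled cell types could not be checked against marker genes. The other lists used here as marks were the in vitro BUR map, urea SATB1 in thymocytes (2 lists), standard SATB1 ChIP-seq in thymocytes (2 lists), and urea CTCF in skin and in thymocytes (1 list each).

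SATB1 is a nuclear protein known best for organising chromatin in thymocytes, and it is also expressed in cortical interneurons and in the basal layer of the epidermis. Its preferred sites are base-unpairing regions (BURs), stretches of DNA in which one strand has A, T and C but no G (an ATC context) and which unpair readily under torsional strain. In urea ChIP-seq, crosslinked chromatin is purified by centrifugation through urea before immunoprecipitation, so that proteins held on DNA only through other proteins are removed. The BUR map lists the genomic fragments that recombinant SATB1 bound in vitro.

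The sequences of the strongest regions are given first, as examples that need not be typical of their class. Each is 300 bases around the summit, read on the plus strand of mm9, with the longest stretch that lacks G or lacks C in capitals. The strongest brain-only region inside Gabra2, which encodes a GABA-A receptor subunit, was in an intron and had a stretch of 43 bases without C. Its fold enrichment was 18.5 and 19.9 in the brain lists, and the BUR map had a peak of 11.4-fold there.

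Gabra2 intron, chr5:71468916-71469215: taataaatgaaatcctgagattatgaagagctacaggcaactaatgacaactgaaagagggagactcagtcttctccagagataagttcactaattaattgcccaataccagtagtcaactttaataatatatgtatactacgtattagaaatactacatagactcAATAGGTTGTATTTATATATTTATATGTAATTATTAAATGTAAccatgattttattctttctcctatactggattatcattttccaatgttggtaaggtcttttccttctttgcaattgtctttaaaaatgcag

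The brain-only regions of highest mean fold were intergenic on chromosomes 12 and X, and their nearest gene starts were those of 1700019M22Rik at 142 kb and Gm773 at 53.8 kb. Their fold enrichment was 28.0 and 28.9 in the brain lists for the first and 27.4 and 28.4 for the second. Both had a stretch of 45 bases without C, and the stretches matched at 41 of the 45 bases. A further strong brain-only region, 23.5 kb from the start of BC048403 on chromosome 10, was of another kind. Its A+T content was 45.7%, its longest stretch was 13 bases, no BUR was mapped there, and thymocyte CTCF had a peak in it.

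Brain-only region 1, chr12:97427244-97427543: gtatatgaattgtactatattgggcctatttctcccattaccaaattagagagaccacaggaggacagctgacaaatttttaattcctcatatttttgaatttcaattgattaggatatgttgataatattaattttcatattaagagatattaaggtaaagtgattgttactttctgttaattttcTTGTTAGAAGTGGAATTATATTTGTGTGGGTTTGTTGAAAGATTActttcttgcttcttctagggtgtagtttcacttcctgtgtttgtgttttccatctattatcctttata

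Brain-only region 2, chrX:53519697-53519996: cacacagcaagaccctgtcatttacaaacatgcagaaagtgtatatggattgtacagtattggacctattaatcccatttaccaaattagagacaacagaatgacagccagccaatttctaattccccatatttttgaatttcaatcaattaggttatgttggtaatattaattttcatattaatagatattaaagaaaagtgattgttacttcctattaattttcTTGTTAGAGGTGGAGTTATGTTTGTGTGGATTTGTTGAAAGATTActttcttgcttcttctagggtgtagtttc

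Brain-only region 3, chr10:121200349-121200648: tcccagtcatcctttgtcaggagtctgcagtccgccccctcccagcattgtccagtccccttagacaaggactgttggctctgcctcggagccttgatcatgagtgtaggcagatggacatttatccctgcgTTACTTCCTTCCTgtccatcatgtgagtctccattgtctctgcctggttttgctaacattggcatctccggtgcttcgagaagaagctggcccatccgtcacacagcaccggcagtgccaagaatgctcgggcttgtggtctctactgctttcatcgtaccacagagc

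In the regions of all 4 lists, the highest folds were at an ATC-rich repeat 9.87 kb from the start of Nanog, where one stretch of 93 bases lacked G, at an intergenic site on chromosome 9, and in an intron of Btk. At the Nanog site the fold enrichment was 28.4 and 29.0 in brain and 35.1 and 35.4 in skin, and skin CTCF had a peak there too. The chromosome 9 site, 336 kb from the start of Col12a1, had folds of 27.2 and 27.4 in brain and 35.6 and 34.6 in skin. All 3 of these sites were BURs and had thymocyte urea SATB1 peaks in both lists.

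All-4 region 1, chr6:122647487-122647786: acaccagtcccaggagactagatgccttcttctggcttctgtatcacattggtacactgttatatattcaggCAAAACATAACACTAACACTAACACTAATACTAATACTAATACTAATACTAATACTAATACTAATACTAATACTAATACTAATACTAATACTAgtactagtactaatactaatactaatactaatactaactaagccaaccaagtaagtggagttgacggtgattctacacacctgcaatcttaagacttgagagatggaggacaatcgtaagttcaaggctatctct

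All-4 region 2, chr9:79230196-79230495: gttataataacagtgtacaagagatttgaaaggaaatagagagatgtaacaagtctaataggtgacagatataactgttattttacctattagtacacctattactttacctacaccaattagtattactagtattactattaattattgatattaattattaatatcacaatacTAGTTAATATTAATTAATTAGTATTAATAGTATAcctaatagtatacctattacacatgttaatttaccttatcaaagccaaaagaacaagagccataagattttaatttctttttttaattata

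All-4 region 3, chrX:131111135-131111434: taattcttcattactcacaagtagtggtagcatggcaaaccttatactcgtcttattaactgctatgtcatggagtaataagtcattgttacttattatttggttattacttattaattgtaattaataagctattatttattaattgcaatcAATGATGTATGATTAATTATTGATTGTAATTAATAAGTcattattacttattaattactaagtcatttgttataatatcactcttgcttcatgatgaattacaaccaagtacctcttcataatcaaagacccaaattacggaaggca

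The strongest skin-only regions looked different. They lay in introns of Cdrt4, Hhat and Atp13a4, their A+T content was 45.3%, 51.7% and 50.0%, and the stretch in capitals was mostly a run of C or of G, up to 27 equal bases long in Hhat. Their fold enrichment in skin replicates 1 and 2 was 41.8 and 41.5 in Cdrt4, 37.9 and 36.5 in Hhat, and 34.2 and 34.2 in Atp13a4. None was a BUR, and each overlapped a skin CTCF peak and peaks of both standard SATB1 lists of thymocytes. Such runs were not typical of the class: 58 of the 1207 skin-only regions (4.81%) had a run of 10 or more G or C.

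Skin-only region 1, chr11:62768060-62768359: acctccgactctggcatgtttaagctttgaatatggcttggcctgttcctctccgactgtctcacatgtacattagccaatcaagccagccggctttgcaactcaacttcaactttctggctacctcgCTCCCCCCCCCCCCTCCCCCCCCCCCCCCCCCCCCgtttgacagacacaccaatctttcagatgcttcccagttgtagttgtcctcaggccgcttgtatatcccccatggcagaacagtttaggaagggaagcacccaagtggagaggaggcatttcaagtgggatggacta

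Skin-only region 2, chr1:194484218-194484517: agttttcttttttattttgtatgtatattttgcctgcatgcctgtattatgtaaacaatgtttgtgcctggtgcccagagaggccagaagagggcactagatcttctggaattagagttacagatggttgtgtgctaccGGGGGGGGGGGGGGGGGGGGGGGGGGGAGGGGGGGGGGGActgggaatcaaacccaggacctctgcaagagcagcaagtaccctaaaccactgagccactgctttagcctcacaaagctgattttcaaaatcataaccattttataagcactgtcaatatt

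Skin-only region 3, chr16:29504595-29504894: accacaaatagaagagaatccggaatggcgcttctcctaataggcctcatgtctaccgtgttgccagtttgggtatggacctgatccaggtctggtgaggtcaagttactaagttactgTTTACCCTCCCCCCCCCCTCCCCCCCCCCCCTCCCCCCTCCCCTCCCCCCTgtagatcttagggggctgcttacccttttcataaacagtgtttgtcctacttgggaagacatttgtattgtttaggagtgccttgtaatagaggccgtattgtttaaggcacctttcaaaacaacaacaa

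In the complete lists, most skin SATB1 peaks had a counterpart in brain, and few brain peaks had one in skin. The brain lists held 117958 and 109149 peaks on these chromosomes and the skin lists 10989 and 10619, that is 113554 ± 6229 against 10804 ± 262 (mean ± SD, n = 2 each). Over the 4 pairs of lists, 82.7% to 84.3% of the skin peaks overlapped a brain peak, and 7.58% to 8.31% of the brain peaks overlapped a skin peak. Skin-only regions took 11.0% and 11.4% of the peaks of the skin lists, while brain-only regions took 69.0% and 74.8% of those of the brain lists. The lists of brain and skin did not overlap in peak number or in the share of peaks found in the other tissue. These are not separate results, because the short skin lists can meet only a small part of the brain peaks. With the 10619 peaks of highest −log10 q in each list, 35.5% and 36.2% of brain peaks were in both skin lists. In the other direction it was 36.7% and 36.6% of skin peaks. The shares found again within a tissue were alike in the complete lists (77.7% and 84.3% in brain, 80.8% and 83.6% in skin). With 2 lists against 2, however, the two-sided exact permutation test gives p = 0.333 for any complete separation, the smallest p it allows, so this test cannot pass a threshold of 0.05 here for any measure.

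The brain peaks that skin shared were the strong ones. Among brain peaks ranked by fold enrichment and split into 10 equal parts, the top part (from 15.85-fold in brain 1 and 15.8-fold in brain 2) overlapped peaks of both skin lists in 33.1% and 34.9% of cases. The bottom part did so in 0.805% and 0.944%. Skin peaks showed a far smaller gradient in the other direction: 67.2% and 68.7% of the bottom part and 84.2% and 85.8% of the top part overlapped peaks of both brain lists. In the regions of all 4 lists the median fold was 16.4 and 16.1 in the brain lists, against 7.86 and 7.73 in brain-only regions. In skin it was 9.85 and 9.21 in these regions and 9.64 and 8.63 in skin-only regions, so the skin-only sites were only slightly weaker than the shared ones. Fold enrichment is relative to the local background of each sample and was not scaled between samples.

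**Figure D1:**
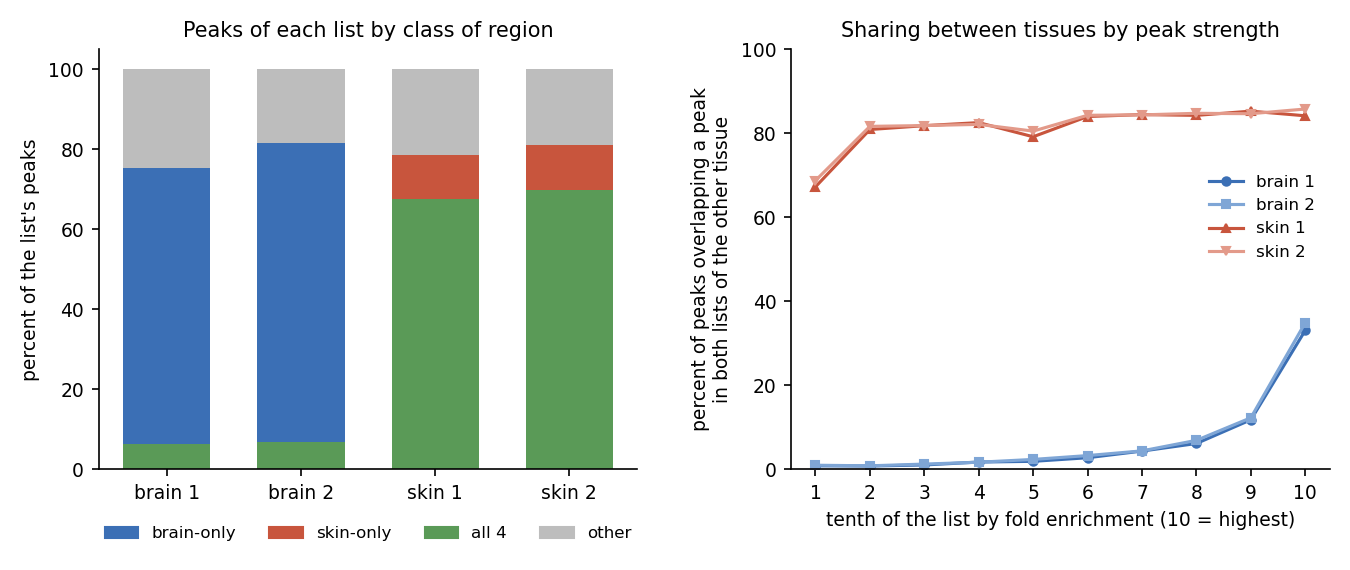
Left, the percent of each list's peaks that lie in regions of all 4 lists, in regions of one tissue only, or in regions with another pattern, for brain replicates 1 and 2 and skin replicates 1 and 2. Right, the percent of peaks overlapping both lists of the other tissue, by rank in 10 equal parts by fold enrichment; the brain lists climb from 0.805% and 0.944% to 33.1% and 34.9%, while the skin lists lie between 67.2% and 85.8% throughout.

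Where both tissues had a peak, it stood at nearly the same base. The summits of brain 1 and skin 1 were a median of 24 bp apart in the 7389 shared regions, those of brain 2 and skin 2 were 25 bp apart, and 94.2% and 93.6% were within 100 bp. For comparison, brain 1 and brain 2 were 17 bp apart and skin 1 and skin 2 were 23 bp apart. The order of the shared regions by fold was alike within a tissue and less so between tissues: Spearman's rho across the regions was 0.93 for the brain lists, 0.90 for the skin lists, and 0.35 to 0.38 for the 4 pairs of a brain and a skin list. This is a description across regions, which share library and base composition and are not replicates. Of the 7389 shared regions, 98.3% also overlapped both thymocyte urea SATB1 lists. The same held for 25.3% of the brain-only regions and 11.3% of the skin-only regions. At least one thymocyte list was met by all but 0.541% of the shared regions, whereas 59.4% of the brain-only and 82.5% of the skin-only regions met none.

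Brain-only and shared regions were mostly BURs, and skin-only regions mostly were not. Over regions, 78.2% of the brain-only, 91.3% of the shared and 31.6% of the skin-only regions overlapped the BUR map. Both lists of a tissue gave nearly equal values. Peaks in brain-only regions overlapped a BUR in 78.1% and 78.0% of cases (78.0% ± 0.0828; SD, n = 2), and peaks in skin-only regions in 31.3% and 31.5% (31.4% ± 0.0950; SD, n = 2 each). The spread is small partly because the 2 lists of a tissue share every region of its class. The BURs in these classes also differed in their enrichment by recombinant SATB1. The median in vitro fold was 6.96 at brain-only regions and 10.2 at shared regions, and 7.74 at the 381 skin-only regions that were BURs. Over all peaks of a list, BUR overlap was 73.0% and 72.8% in brain and 78.5% and 79.6% in skin, where most peaks lay in shared regions. This order of the tissues depended on list size: with the 10619 strongest peaks of each list, brain exceeded skin by 20.0 percentage points.

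Seen from the BUR map, 63730 of the 232310 BURs (27.4%) were bound in both brain lists and in no skin list, 6732 (2.90%) were bound in all 4, and 378 (0.163%) were bound in both skin lists and in no brain list. None of the 4 lists had a peak at 138785 BURs (59.7%). The share of BURs with a skin peak rose with in vitro fold over the whole range. Both skin lists had a peak at 0.465% of the BURs in the lowest of 10 equal parts by in vitro fold and at 10.5% in the highest. Binding in both brain lists rose from 13.9% to 40.6% in part 7 and was then level, at 42.5% in part 10. The 4 lists gave this shape one by one: in part 10 brain 1 and brain 2 had peaks at 46.7% and 43.6% of the BURs, and skin 1 and skin 2 at 11.9% and 11.8%.

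In base composition the skin-only regions stood apart. The median A+T content of 300 bp around the summit was 70.3% in brain-only regions, 69.3% in shared regions and 57% in skin-only regions. Per list, it was 70.3% and 70.3% for peaks of brain-only regions and 57% and 57.3% for peaks of skin-only regions (57.2% ± 0.236; SD, n = 2). The distributions overlapped: the central 80% of the regions, from the 10th to the 90th percentile, spanned 63.3% to 76.0% in brain-only and 45.7% to 69.3% in skin-only regions. A content of 65% or more was found in 84.9% of brain-only, 75.0% of shared and 24.3% of skin-only regions. The longest stretch that lacked G or lacked C had a median of 34 bases in brain-only, 37 in shared and 31 in skin-only regions. The skin-only class had a long upper tail, since 10.5% of its regions had a stretch of 80 bases or more, against 0.698% of the brain-only and 1.65% of the shared regions. Taken over all peaks of a list, the tissues were closer, with 70.0% and 69.7% A+T in brain and 67.7% in each skin list.

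**Figure D2:**
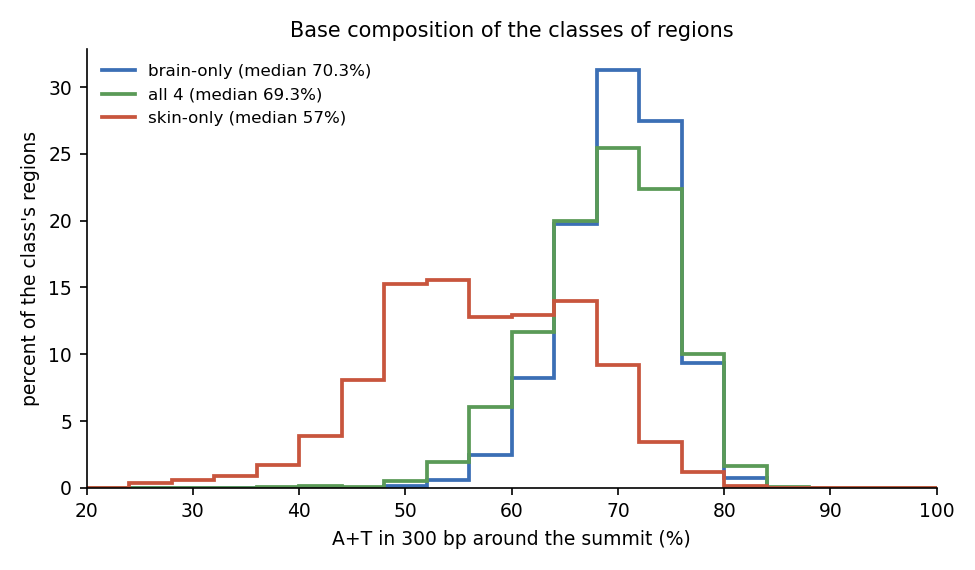
Distribution of A+T content in 300 bp around the summit, in steps of 4 percentage points, for 81282 brain-only, 7389 shared and 1207 skin-only regions, each as a percent of its class. Brain-only and shared regions peak near 70%, and skin-only regions are spread from 45.7% to 69.3% in their central 80%.

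Skin CTCF peaks lay on most skin-only regions and on few others. CTCF is a zinc finger protein that binds a GC-rich motif and marks boundaries of chromatin domains. Its urea ChIP-seq list in skin overlapped 799 of the 1207 skin-only regions (66.2%), 166 of the 7389 shared regions (2.25%) and 362 of the 81282 brain-only regions (0.445%). Both skin lists gave the same value, 66.2%, and the brain lists gave 0.429% and 0.400% over the peaks of brain-only regions. The thymocyte CTCF list overlapped only 54 skin-only regions (4.47%), 1.48% of the shared and 0.229% of the brain-only regions. The skin CTCF peaks on skin-only regions were unlike the rest of that list: 7.11% of these 802 peaks had a thymocyte CTCF counterpart, against 54.9% of the other 30413, and their median fold was 13.9 against 5.62. The skin CTCF list is a single list without a replicate. The contrast depended on list size, since at equal list size skin CTCF lay on 19.4% of skin-only and 0.373% of brain-only regions. The skin-only class is another one there. It has 4656 regions, and most of them have a brain peak in the complete lists that the cut removed.

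Within the skin-only class, the regions on and off skin CTCF differed in most other measures. The 799 on CTCF had a median A+T of 53.0%, overlapped a BUR in 15.9% of cases and overlapped a standard SATB1 peak of thymocytes, in either list, in 79.6%. The 408 off CTCF had a median A+T of 65.3%, overlapped a BUR in 62.3% of cases and a standard SATB1 peak in 3.92%. Runs of 10 or more G or of 10 or more C, as in the strongest regions above, were found in 54 of the 799 (6.76%) and in 4 of the 408 (0.980%). They occurred in 0.281% of brain-only and 0.447% of shared regions. Standard SATB1 peaks lay on 54.0% of all skin-only regions, 2.84% of shared and 0.472% of brain-only regions. That list comes from another tissue and another protocol.

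**Figure D3:**
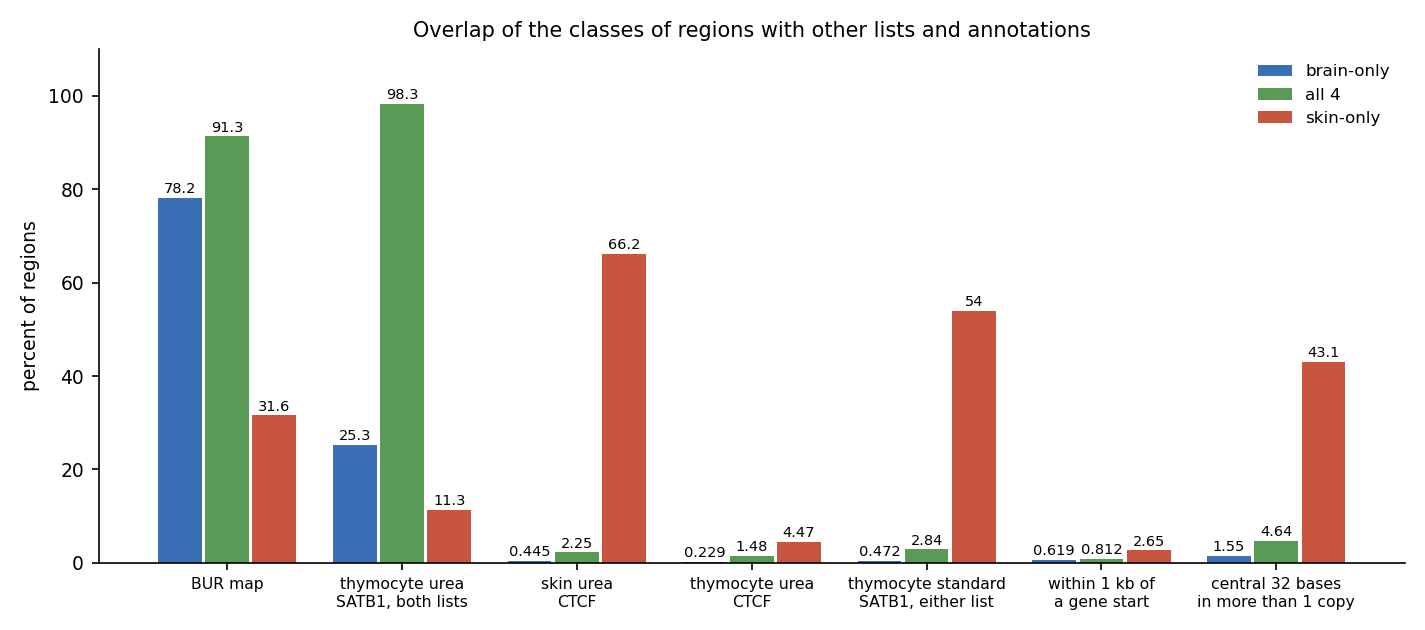
Percent of brain-only, shared (all 4) and skin-only regions that overlap the BUR map, the thymocyte urea SATB1 lists (both), the skin and the thymocyte urea CTCF lists and a thymocyte standard SATB1 list, that lie within 1 kb of a gene start, and whose central 32 bases occur more than once in the genome. Skin-only regions are lowest for BURs (31.6%) and highest for skin CTCF (66.2%), standard SATB1 (54.0%) and repeated central bases (43.1%).

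Skin-only regions also lay more often in DNA that is present in several copies. The 32 bases at the summit occurred more than once in the genome, counted exactly and on both strands, in 520 skin-only regions (43.1%), in 4.64% of shared and in 1.55% of brain-only regions. The share with 10 or more copies was 25.4%, 1.62% and 0.515%. Over whole lists the share was 10.3% and 10.4% of the skin peaks and 1.92% and 1.89% of the brain peaks. On the 687 skin-only regions of 1 copy the contrasts with brain-only regions were as large or larger: 19.8% overlapped a BUR, 72.8% overlapped skin CTCF and the median A+T was 56.7%. The skin lists also had 221 and 227 peaks outside these chromosomes, mostly on unplaced contigs, whereas each brain list had 5, all mitochondrial. The part of read mapping in these differences was not tested.

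The copies were partly clustered. A total of 22 windows of 1 Mb held 5 or more skin-only regions each, and together they held 176 regions (14.6%). They included neighbouring windows on chromosome 7 around vomeronasal receptor genes such as Vmn1r112, the start of chromosome 9, and several windows on the X chromosome. There were 0.708 skin-only regions per Mb on the X chromosome and 0.438 per Mb on the autosomes. For brain-only regions the order was the opposite, 21.2 against 31.4 per Mb, and for shared regions it was 2.40 against 2.83. Of the 118 skin-only regions on X, 56.8% had more than 1 copy.

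The Satb1 gene itself (chromosome 17, 51875512 to 51972615, minus strand) held more skin-only regions in its body than any other gene, and every one of them sat on an exon. It is the gene of the protein that was immunoprecipitated. Skin 1 and skin 2 each had 10 peaks in the gene, all 10 on exons, although exons make up 9.65% of its length. Skin CTCF had 11 peaks there, all on exons. Each of the 10 skin-only regions overlapped a skin CTCF peak of similar fold. At the strongest of them (chromosome 17, 51907023 to 51907542) the fold was 29.6 and 29.1 for SATB1 and 32.3 for CTCF, and at the weakest (51943483 to 51943934) it was 5.49, 5.61 and 5.47. Brain 1 had 6 peaks in the gene, 5 of them off exons, and brain 2 had 9, of which 8 were off exons. The thymocyte urea lists had 6 and 8 peaks, 4 and 7 of them off exons. All 10 skin-only regions also overlapped the BUR map, at a median A+T of 48.8% and a range of 45.0% to 61.7%, while the 6 brain-only regions had 60.3% to 72.3%. One of the 10 had thymocyte urea SATB1 peaks and 2 had a standard SATB1 peak. Whether exon peaks shared by SATB1, CTCF and in vitro lists come from Satb1 DNA without introns, such as cDNA or a plasmid, was not tested. Among the 7 genes with 3 or more skin-only regions in the body, the other one with all of them on exons was Dux (3 of 3).

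**Figure D4:**
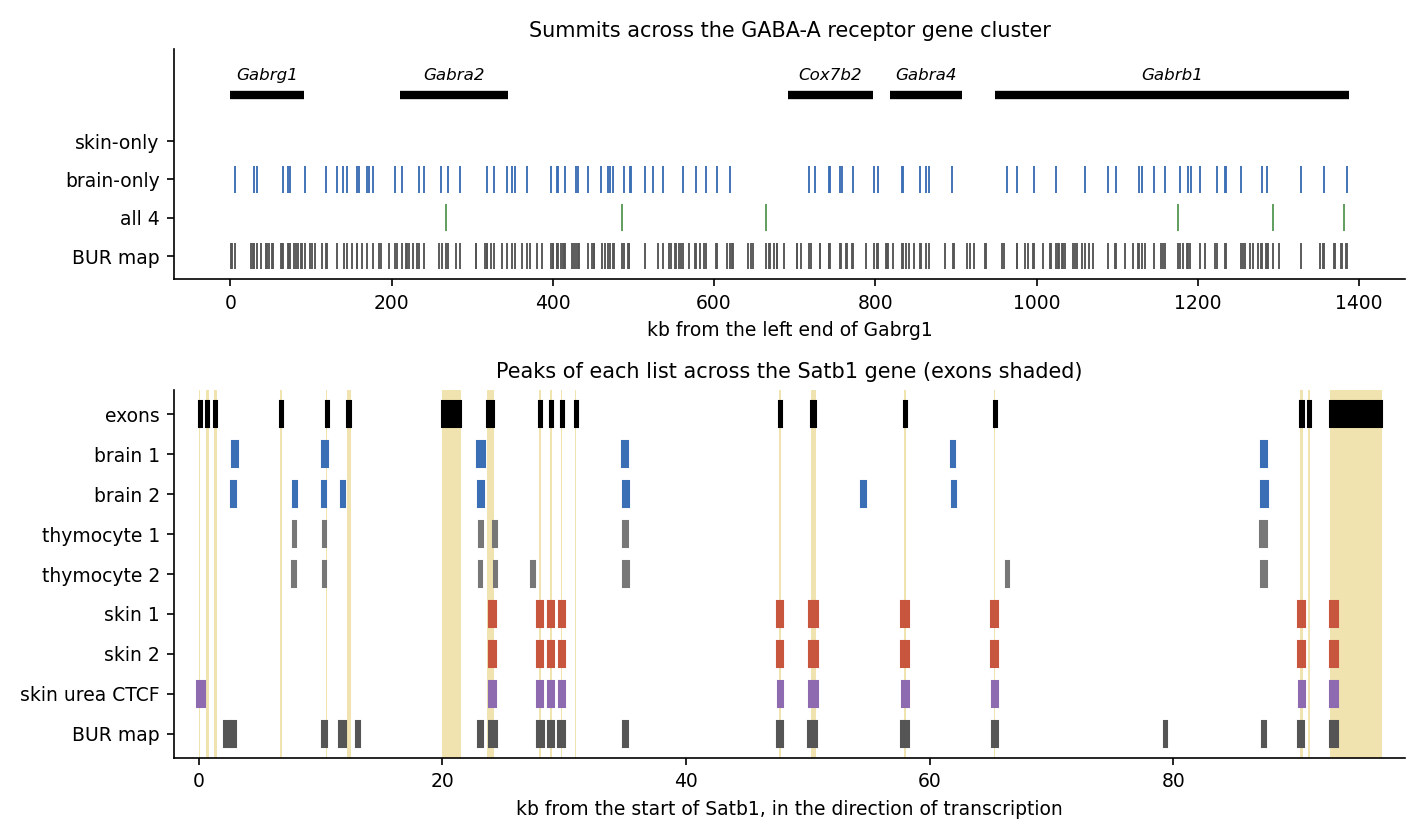
Top, summits of BURs and of brain-only, shared (all 4) and skin-only regions from Gabrg1 to Gabrb1, by distance from the left end of Gabrg1: 90 brain-only regions, 6 shared regions and no skin-only region. Bottom, peaks of the brain, thymocyte and skin urea SATB1 lists, skin urea CTCF and the BUR map across Satb1, by distance from its start, with exons shaded: all 10 peaks of each skin list are on exons, and 5 of 6 brain 1 peaks are not.

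Brain-only and shared regions were mainly intergenic and intronic, and far from gene starts. Of the brain-only regions 64.2% were intergenic, 33.9% intronic, 1.24% exonic and 0.619% within 1 kb of the start of a protein-coding gene. In the shared class these shares were 61.9%, 36.3%, 0.947% and 0.812%. Skin-only regions were 58.9% intergenic, 34.1% intronic, 4.39% exonic and 2.65% near a start. Near starts were 32 skin-only regions, and 27 of these overlapped skin CTCF. The median distance to the nearest start was 159 kb for brain-only, 108 kb for shared and 52.7 kb for skin-only regions. Within 500 kb of the summit there were a median of 2, 3 and 6 gene starts. Over all peaks, 0.634% and 0.632% in brain and 1.06% and 1.07% in skin were near a start (0.633% ± 0.00139 against 1.07% ± 0.00626; SD, n = 2 each).

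Gene density went with the tissue pattern in opposite ways. In windows of 1 Mb without any protein-coding gene start there were 50.4 brain-only and 0.282 skin-only regions per window. In windows with over 20 starts there were 13.8 brain-only and 0.559 skin-only regions. BURs thinned out as well, from 132 to 52.4 per window. Per 100 BURs, brain-only regions fell from 38.1 to 26.4, shared regions went from 2.67 to 3.71, and skin-only regions went from 0.214 to 1.07. Only 31.6% of the skin-only regions overlapped a BUR, so for them this ratio is not a share of BURs bound.

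Genes of neurons were compared with genes of the epidermis. Each gene was taken with 10 kb on either side, and every list is set beside all 22225 protein-coding genes. Of these, 9587 (43.1%) had a brain-only region, 2574 (11.6%) had a region of all 4 lists, and 616 (2.77%) had a skin-only region. Of 136 neuronal genes from 6 lists, 101 had a brain-only region (74.3%, 95% Wilson interval 66.3% to 80.9%), and 67 (49.3%) had a shared region. For 199 epidermal genes from 6 lists the count was 85 (42.7%, 36.0% to 49.7%), an interval that holds the share over all genes, and 18 (9.05%) had a shared region. Skin-only regions were found at 17 neuronal genes (12.5%) and at 3 epidermal genes (1.51%). The intervals cover counting error only and take genes as independent. Neighbouring genes with their flanks can share a region, so the intervals may be too narrow. At keratin-associated protein genes, for example, 25 genes had a brain-only region from 24 regions. The distance counted as part of a gene mattered. With the gene body alone the neuronal share stood 40.2 percentage points above that of all genes and the epidermal share 15.7 below it (a difference of -15.7). With 50 kb on either side the differences were 15.2 and 8.04 points, and the epidermal difference also turned positive without brain replicate 1 or 2, at 1.66 and 5.14 points.

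The neuronal genes are long, with a median of 190 kb against 15.5 kb over all genes and 4.26 kb for the epidermal genes. Among all genes the share with a brain-only region was 28.6% under 20 kb, 53.1% from 20 to 100 kb, 88.3% from 100 to 500 kb and 100% in the 198 genes over 500 kb. The share with a skin-only region rose over the same lengths, at 1.54%, 2.68%, 8.02% and 26.3%. For shared regions it was 5.07%, 12.0%, 40.4% and 88.9%. The share of a list's BURs that carry a peak depended less on length, but it too rose, from 26.1% bound in both brain lists at genes under 20 kb to 35% at genes over 500 kb. At neuronal genes 42.2% and 39.2% of the 8114 BURs had a peak in brain 1 and brain 2, against 36.2% and 33.4% of the 91552 BURs over all genes and 33.1% and 27.9% of the 384 BURs at epidermal genes. Of the 8114, 6098 were at 37 long genes of adhesion and synapses (43.1% and 39.5%). The receptor and channel lists also exceeded all genes, with 39.7% to 41.1% in brain 1. Interneuron genes (30.9% and 31.5%) and immediate early genes (25.8% and 25.8%) lay below. Olfactory receptor genes, in no neuronal list, reached 41.1% and 37.4%. In skin 1 and skin 2 the shares were 3.30% and 3.18% at neuronal genes, 4.03% and 3.94% over all genes, and 3.91% and 3.65% at epidermal genes. The share bound in both brain lists at neuronal genes, 35.8%, was close to that of genes over 500 kb of any kind.

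**Figure D5:**
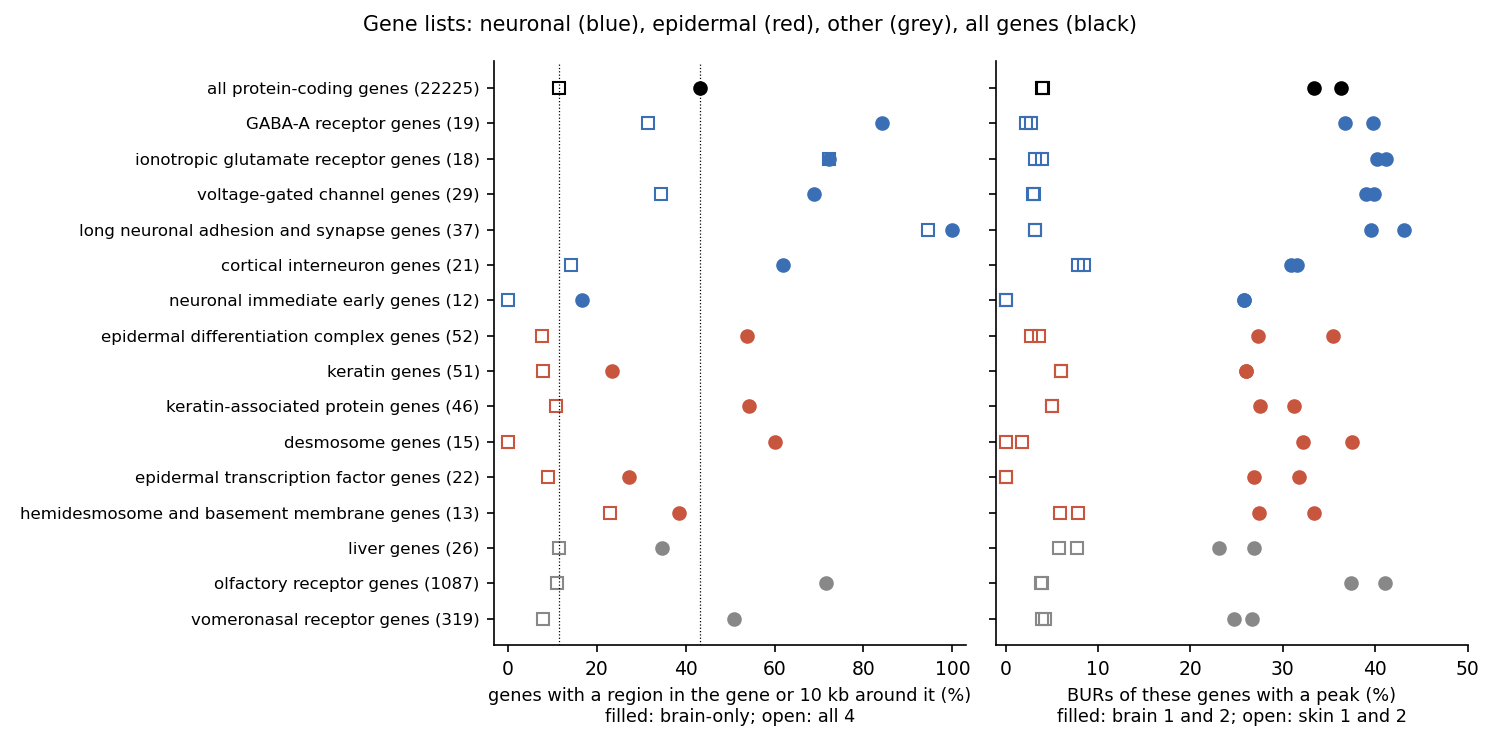
Left, percent of the genes of each list (number of genes in brackets) with a brain-only region (filled) or a region of all 4 lists (open) in the gene or within 10 kb, with dotted lines at the values over all genes, 43.1% and 11.6%. Right, percent of the BURs at these genes with a peak in brain 1 and brain 2 (filled) and in skin 1 and skin 2 (open): 4 neuronal lists lie above all genes in both brain lists, and the skin values lie under 10% in every list.

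Most receptor and channel genes of neurons carried brain-only regions, as did most genes of similar length. GABA-A receptors are the chloride channels of fast inhibition, and 16 of their 19 genes had a brain-only region. That is 84.2%, against 53.1% of all genes of 20 to 100 kb (median length of the list 88.6 kb). These genes held 123 BURs per Mb, against 57.7 at all genes of that length. Of their BURs 32.5% were bound in both brain lists, against 27.5%. In the cluster from Gabrg1 to Gabrb1 (chromosome 5, 71142286 to 72529628, 1.39 Mb) there were 250 BURs, 127 and 111 peaks in the brain lists, and 6 and 7 in the skin lists. These made 90 brain-only regions, 6 shared regions and no skin-only region. Gabra2 had 15 and 16 brain peaks and 1 peak in each skin list, and 14 of its 27 BURs were bound in both brain lists. Gabrb1 had 36 and 31 brain peaks and 3 in each skin list, and Gabrg1 (17 and 12) and Gabra4 (7 and 7) had brain peaks but none in skin. Gabrb2, a subunit gene of another cluster, had 16 brain-only regions and 1 skin-only region.

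Ionotropic glutamate receptors are the channels of fast excitation. Of their 18 genes, 13 had a brain-only region and 13 a shared one (72.2% each), among them Grik2 (72 brain-only regions) and Gria4 (29). Their median length was 298 kb. Of all genes of 100 to 500 kb, 88.3% had a brain-only region and 40.4% a shared one. Gria1, which encodes an AMPA receptor subunit, had 5 brain-only regions and 1 skin-only region. Voltage-gated channel genes, with a median length of 159 kb, had a brain-only region in 20 of 29 cases (69.0%), also below that 88.3%. The highest numbers were at the calcium channel subunit gene Cacna2d1 (46) and the potassium channel genes Kcnd2 (45) and Kcnh7 (42). At Kcnd2 the brain lists had 59 and 54 peaks and the skin lists 3 and 3. At the genes named here from both lists each skin list had at most 4 peaks.

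Very long genes of neuronal adhesion and synapses held the highest numbers in the genome. All 37 of that list had a brain-only region and 35 (94.6%) had a shared one, against 100% and 88.9% of all genes over 500 kb. Lrp1b (173 brain-only regions), Ptprd (172), Cntnap2 (143), Csmd3 (134) and Erbb4 (121) were the 5 highest of all protein-coding genes. Lrp1b, at 2058 kb, had 233 and 218 peaks in brain and 18 and 18 in skin. Of its 449 BURs, 37.2% were bound in both brain lists and 2.90% in both skin lists. Ptprd and Cntnap2 had 38.0% and 35.2% of their BURs bound in brain. Skin-only regions were found at 10 of the 37 genes, 2 each at Lrp1b, Il1rapl1 and Pcdh15.

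The lists of shorter neuronal genes differed from each other. Of 12 immediate early genes, which neurons switch on upon activity, only Homer1 (7 brain-only regions) and Bdnf (2) had any, which is 16.7% against 28.6% of all genes under 20 kb (their median length was 4.70 kb). Cortical interneuron genes, with a median length of 11.9 kb, had a brain-only region in 13 of 21 cases (61.9%), with most at Sox6 (19), Reln (17) and Satb1 (6). All 10 skin-only regions of that list were those of Satb1. Its share of BURs bound in both skin lists was 7.88% against 3.37% over all genes, and 10 of these 13 BURs were at Satb1.

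Epidermal genes had more peaks in the brain lists than in the skin lists, as genes in general did. In the epidermal differentiation complex, the cluster on chromosome 3 whose proteins build the cornified envelope, 28 of 52 genes had a brain-only region, 4 had a shared one and none had a skin-only one. The 28 genes are 53.8% of the list, against 28.6% of all genes under 20 kb (median length of the list 1.70 kb). However, the genes of the complex held 115 BURs per Mb, against 59.9 at all genes under 20 kb. The share of these BURs bound in both brain lists was nearly the same, 26.4% against 26.1%. Lce1a1 had 4 peaks in each brain list and none in skin. At Flg, which encodes filaggrin, there were 3 and 2 brain peaks and none in skin, and at Crnn 2 and 2. The 52 genes with their flanks, which hold 110 BURs, had 51 and 38 peaks in the brain lists and 5 and 4 in the skin lists.

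Keratin genes, which encode the intermediate filaments of epithelia, had a brain-only region in 12 of 51 cases (23.5%), against 28.6% of all genes under 20 kb (median length of the keratin genes 6.99 kb), and a skin-only region at Krt18 alone. Krt23 had 2 brain-only regions, while Krt28 and Krt222 had 1 brain-only and 1 shared region each. Keratin-associated protein genes, which form the hair matrix, had a brain-only region in 25 of 46 cases (54.3%, median length 0.85 kb), against the same 28.6%. Krtap11-1, Krtap16-8 and Krtap3-2 had 2 each. There was no skin-only region at these genes. They held 105 BURs per Mb, against 59.9 at all genes under 20 kb. Of these BURs 26.25% were bound in both brain lists, against 26.1%. Desmosome genes, for cell junctions, had a brain-only region in 9 of 15 cases (60.0%, median length 33.5 kb), against 53.1% of all genes of 20 to 100 kb. They had neither a shared nor a skin-only region, and 1 and 0 skin peaks in all. Dsc1 had 6 and 5 brain peaks, Dsg4 had 4 and 4, and Dsc2 had 4 and 3.

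The 22 epidermal transcription factor genes, with a median length of 16.4 kb, had a brain-only region in 6 cases (27.3%), against 28.6% of all genes under 20 kb. They had no skin-only region. Trp63, the master regulator of the epidermal lineage, had 12 and 10 peaks in the brain lists and none in the skin lists. Of its 22 BURs, 10 were bound in both brain lists. Ehf and Prdm1 had 2 brain-only regions each. Genes of hemidesmosomes and the basement membrane, which anchor the epidermis, had a skin-only region in 2 of 13 cases (15.4%), with 2 regions in Dst and 1 in Fermt1. Their median length was 45.8 kb, and 2.68% of all genes of 20 to 100 kb had one. Dst itself is 400 kb long, and 8.02% of all genes of 100 to 500 kb had a skin-only region. With only 2 genes, the share of 15.4% is no measure of an excess in this list. Dst also had 6 brain-only regions, and Lama3 and Itgb1 had 2 each.

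Brain-only regions were also found at genes of other kinds. Olfactory receptor genes, which lie in AT-rich clusters, had a brain-only region in 778 of 1087 cases (71.6%) and vomeronasal receptor genes in 162 of 319 (50.8%). Liver genes had one in 9 of 26 cases (34.6%). The median length in each of these lists was under 20 kb, and 28.6% of all genes under 20 kb had one. In the same order, these lists held 169, 145 and 58.7 BURs per Mb, against 59.9 at all genes under 20 kb. The share of BURs bound in both brain lists was 34.3%, 22.1% and 21.2%, against 26.1%. Vomeronasal receptor genes had a skin-only region in 26 cases (8.15%), against 1.54% of all genes under 20 kb, many of them in the crowded windows of chromosome 7. Cd4, a T-cell gene with 4 BURs, had no SATB1 peak in any of the 4 lists. With their flanks, the genes with the most skin-only regions besides Satb1 were Gm10721, Gm10719, Gm10720 and Gm11167, neighbours within the first window of chromosome 9 that each held 8 to 10 in a shared stretch, so their counts are not independent.

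When all 4 lists were cut to equal size, keeping the 10619 peaks of highest −log10 q in each, the picture changed in part. The lowest −log10 q kept was 127.5 and 101.9 in the brain lists and 6.23 and 2.69 in the skin lists. There were then 4824 brain-only, 4656 skin-only and 3516 shared regions, and 35.5% and 36.2% of brain peaks and 36.7% and 36.6% of skin peaks were in both lists of the other tissue. Only 1207 regions were skin-only in the complete lists. Most of the 4656 therefore have a brain peak that fell below the cut. Strong brain-only regions were BURs in 99.5% of cases, with a median A+T of 73.7%, and the enlarged skin-only class in 66.4%, with 64.7%. Skin CTCF lay on 0.373% of the former and 19.4% of the latter. Among strong brain-only regions, 54 of 136 neuronal genes (39.7%) and 1 of 199 epidermal genes (0.503%) had one, against 5.62% over all genes. For the skin-only class at equal size the shares were 39%, 7.04% and 8.84%. Both thymocyte urea lists had a peak in 84.4% of the former and 73.6% of the latter.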

How the data were processed

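Peak lists of SATB1 urea ChIP-seq in brain and skin (2 samples each) were analysed together with 7 further lists that served as marks. According to the study's methods and notes, the authors aligned reads to mm9 with Bowtie2 2.3.1, kept unique matches and called peaks in each sample on its own with MACS2 2.2.7. The deposited columns hold a display score (not used), the fold enrichment at the summit over local background (a ratio not scaled between samples), the −log10 p and −log10 q of each peak, and the offset of the summit. The lists hold no read counts and the sources used here give no read total per sample, so no counting error per peak can be given. The study describes total aligned reads as similar between cell types.

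Peaks on chromosomes 1 to 19, X and Y that shared at least 1 bp were merged into regions. A+T content and the longest stretch without G or without C were read from 300 bp around the summit in mm9, for a region that of its strongest peak in replicate 1 (of brain where brain had a peak). A gene start was counted within 1 kb, and genes with 10 kb on either side, from the GENCODE gene annotation of mm9 (NCBIM37) with 22225 protein-coding genes. The 32 bases at each summit were counted exactly on both strands of the genome.

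Lists were compared by mean ± SD (n = 2) and a two-sided exact permutation test. Regions of one genome are not replicates, so differences over regions were described without a test. Named genes were those of the windows the study shows (Gabra2, Gabrg1, Gabra4, Gabrb1 and Cd4), the 3 with the most brain-only and up to 3 with the most skin-only regions in each neuronal and epidermal list, and the 5 highest of all genes for each, of which 1 gene is not reported here. The 3 regions of highest mean fold per class and the strongest brain-only region of Gabra2 were shown. Vmn1r112 and Dux were named after their values were seen. Members and lists were chosen with earlier results of these data known. Alternatives were another q threshold, overlap rule, list size, gene distance or window, and leaving out each list. The search for repeated sequence and crowded windows was added after seeing the data. The scripts were tested on simulated data. Python 3.11.15, numpy 2.4.6, scipy 1.17.1, pysam 0.24.0 and matplotlib 3.10.9 were used.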

Additional observations from a re-analysis of the deposited data

How the results depend on the processing

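The lists give no read counts, so a site without a peak may be a site under the threshold, and the brain lists are about 10 times longer than the skin lists. Over 14 results, 146 alternative values were computed: 100 stayed within the limit set for their kind (a fixed ratio for a number of regions, the spread between lists for a difference over regions, the Wilson interval for a gene list, the same sign for a difference over lists) and 46 did not. Some of the 100 could not differ. The replicate block repeats the main value for its 5 results. Leaving out regions with a peak in all 11 lists cannot alter the brain-only or skin-only class. Of 113 signed values, such fixed ones included, 109 kept their sign. The 4 others were the BUR overlap of peaks per list, brain minus skin, which was -6.20 percentage points in the complete lists and 20.0 at equal list size, and the epidermal genes against all genes, at -0.423 points, which stood at 8.04 with 50 kb, 1.66 without brain replicate 1 and 5.14 without brain replicate 2. With a replicate block, that is permuting tissue only within replicate numbers, p was 0.5 for all 5 results over lists, the smallest p this design allows. The numbers mark no shared animal or day in the labels.

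At equal list size there were 4824 brain-only, 4656 skin-only and 3516 shared regions, and the differences of brain-only minus skin-only regions were 33.1 points for BUR overlap, -19.0 for skin CTCF, 9.0 for median A+T and -0.773 for gene starts, against 46.6, -65.8, 13.3 and -2.03 in the complete lists. Skin-only then means without a brain peak above the cut, and most of these regions have a weaker brain peak in the complete lists. Without regions of more than 1 copy there were 687 skin-only regions, and the differences were 58.3, -72.3, 13.7 and -1.86. Without the crowded windows and Satb1 they were 54.8, -70.6, 14.7 and -1.42. Both of these were chosen after seeing the data. A −log10 q of at least 5 gave 47.0, -65.8 and -2.06 for BUR, CTCF and gene starts, an overlap of 50% gave 46.9, -65.8 and -2.12, and a summit inside the other peak gave 47.0, -66.1 and -2.10. A+T over whole regions differed by 11.5 points. Gene starts within 5 kb differed by -6.64 points. The neuronal genes stood 40.2 points above all genes with gene bodies alone and 15.2 with 50 kb, against 31.1. The epidermal genes stood at -15.7 with gene bodies alone. The cause of these shifts was not tested.

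Leaving out each list in turn gave 82584 to 107405 brain-only, 1301 to 1659 skin-only and 7476 to 8935 shared regions. The differences over regions ranged from 36.7 to 51.0 points for BUR, -62.5 to -58.3 for CTCF, 11.0 to 13.3 for A+T and -1.98 to -1.84 for gene starts. Neuronal genes ranged from 26.3 to 31.4 points and epidermal genes from -1.03 to 5.14. Over lists, brain minus skin ranged from 98345 to 107154 peaks, -6.75 to -5.65 points for BUR, -10.8 to -10.0 for CTCF, 2.0 to 2.33 for A+T and -0.440 to -0.432 for gene starts.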
